A study of Mus musculus with 23 samples.

Results

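The genes described here are Cybb, Cyba, Ncf1, Ncf4, Rac2, Nox4 and Hvcn1, which code for subunits of NADPH oxidases and for a proton channel that works beside them. They were chosen by gene symbol and not by any measured value, and they make up 7 of the 67228 gene entries in the count table. All 7 passed the filter on low counts (at least 10 counts in at least 5 mice) that left 14364 genes for testing. Nox4 lay close to that filter, with 3 to 32 counts per mouse, whereas the other 6 genes had at least 1415 counts in each mouse.

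RNA was sequenced from marrow-depleted femur and tibia of 23 female mice on a C57BL6/N background at 11 weeks of age, with 1 library per mouse. The groups were set by genotype and by type 1 diabetes (T1D). T1D was induced at 8 weeks of age with streptozotocin (STZ), a drug that kills insulin-producing β cells, at 100 mg/kg, and bones were taken 3 weeks later. Wild-type mice given saline formed WT Control (n = 5) and wild-type mice given STZ formed WT T1D (n = 6), while mice with a global Sarm1 knockout formed KO Control (saline, n = 6) and KO T1D (STZ, n = 6). SARM1 is an enzyme that breaks down NAD+ and is best known from degenerating axons. The comparisons ask whether oxidase gene expression in bone differed with T1D, and whether that difference depended on Sarm1.

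NADPH oxidases move electrons from NADPH across a membrane to oxygen and so make superoxide, from which other reactive oxygen species form. In neutrophils and macrophages, the catalytic subunit gp91phox (Cybb) sits in the membrane with p22phox (Cyba), and the enzyme stays silent until cytosolic subunits, among them p47phox (Ncf1), p40phox (Ncf4) and the GTPase Rac2, join it. The voltage-gated proton channel HV1 (Hvcn1) lets protons follow the electrons, which keeps the enzyme running. NOX4 (Nox4) is a separate catalytic subunit of mesenchymal, endothelial and kidney cells that also pairs with p22phox but needs no cytosolic subunits.

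Promoter windows are shown for Cybb, Cyba and Ncf1, the members of the phagocyte enzyme for which the RefSeq promoter table of GRCm38.p6 held an entry, because their expression in bone is followed below. Of the 7 genes, 4 had an entry, and the fourth was Nox4. Each window runs 5′ to 3′ on the strand of the gene from 250 bases before to 50 bases after the listed transcription start. Capitals mark every match, on either strand, to GAGGAA (the core of sites for the myeloid factor PU.1), CCAAT, or GAAANNGAA (the core of sites for interferon regulatory factors). The Cybb window is chrX:9469275-9469574, the Cyba window is chr8:122432891-122433190 and the Ncf1 window is chr5:134229576-134229875, all on the minus strand.
Cybb: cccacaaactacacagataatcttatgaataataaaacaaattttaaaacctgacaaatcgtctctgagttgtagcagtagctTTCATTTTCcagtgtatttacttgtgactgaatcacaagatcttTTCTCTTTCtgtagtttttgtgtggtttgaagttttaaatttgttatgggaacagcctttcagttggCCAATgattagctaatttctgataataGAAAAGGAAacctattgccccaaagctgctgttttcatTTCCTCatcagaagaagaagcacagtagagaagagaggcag
Cyba: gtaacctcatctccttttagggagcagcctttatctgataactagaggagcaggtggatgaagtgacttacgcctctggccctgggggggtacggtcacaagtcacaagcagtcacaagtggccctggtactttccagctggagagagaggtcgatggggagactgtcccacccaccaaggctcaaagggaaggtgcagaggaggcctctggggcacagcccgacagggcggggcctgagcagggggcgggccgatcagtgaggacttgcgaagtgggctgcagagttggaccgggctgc
Ncf1: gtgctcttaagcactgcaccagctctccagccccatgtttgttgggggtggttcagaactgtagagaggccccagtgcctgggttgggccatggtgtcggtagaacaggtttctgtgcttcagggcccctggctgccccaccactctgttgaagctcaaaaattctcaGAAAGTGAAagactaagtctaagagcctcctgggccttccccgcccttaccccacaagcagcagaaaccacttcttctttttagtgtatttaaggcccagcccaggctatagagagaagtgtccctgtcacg
The Cybb window held matches to all 3 patterns, including CCAAT with its first base 56 bases before the start and 3 matches to GAAANNGAA. The Ncf1 window held 1 match, to GAAANNGAA, with its first base 82 bases before the start. No match was found in the windows of Cyba and Nox4. Among 32851 promoter windows of the same length, 28.3% held GAGGAA, 37.4% held CCAAT and 8.56% held GAAANNGAA, so that the first pair of patterns is common and a match describes the letters only.

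Sequencing depth was even, with total counts from 16938101 to 20135592 per mouse. Sarm1 RNA was low in every library (5 to 32 counts) and did not follow the genotype labels. In CPM (counts scaled to a common library total), KO T1D had 1.19 ± 0.26 (SD) and WT T1D had 0.69 ± 0.29, whereas the saline-treated groups had 0.80 ± 0.50 (KO) and 1.17 ± 0.40 (WT). In these data genotype is therefore taken from the labels, and these animals are called mice labelled Sarm1-KO. By qPCR, the paper reports significantly less Sarm1 in knockout bone than in WT bone. Other genes did differ between the labelled genotypes here. The lowest adjusted p over all genes was 2.0e-15 between the saline-treated groups and 1.2e-16 between the STZ-treated groups (edgeR). Markers of bone-forming cells were present in 21 of the 23 libraries at a summed level of 53248 CPM or more, but WT T1D mice A3905 and A3906 had only 6477 and 5050 CPM, and both also had the highest summed neutrophil markers (45590 and 41548 CPM). Results that rest on these 2 libraries are given with and without them, except correlations among members and with their nearest genes, and genotype differences with T1D. Blood-cell RNA was part of all libraries, with hemoglobin genes taking 8.01% to 21.4% of the counts, and in bulk tissue fewer cells of a type and less RNA per cell cannot be told apart.

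Expression of the phagocyte oxidase was high in bone and that of Nox4 was very low. On the length-corrected TPM scale, on which the values of a library add up to the same fixed total, the order of mean levels over 23 mice was Rac2 (462), Cyba (461), Ncf1 (248), Cybb (126), Ncf4 (104), Hvcn1 (100.1) and Nox4 (0.371). Rac2 and Cyba could not be ordered, since Rac2 was the higher in 14 of 23 mice. The same held for Ncf4 and Hvcn1 (Ncf4 higher in 13 of 23). Cybb exceeded Ncf4 in 21 of 23 mice, and Cyba exceeded Ncf1, Ncf1 exceeded Cybb, and Hvcn1 exceeded Nox4 in 23 of 23 mice. The mean level of Cyba, which serves both catalytic subunits, was 1243 times that of Nox4, and the mean level of Cybb was 341 times that of Nox4. These levels are averages over all cells of the sample, and strand handling in the counting was not given in the sources used here. Reads from Gm33784, LOC115490142 and Tctn1, which overlap Cybb, Ncf1 and Hvcn1 in the annotation, can therefore not be set apart with certainty.

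**Figure D1:**
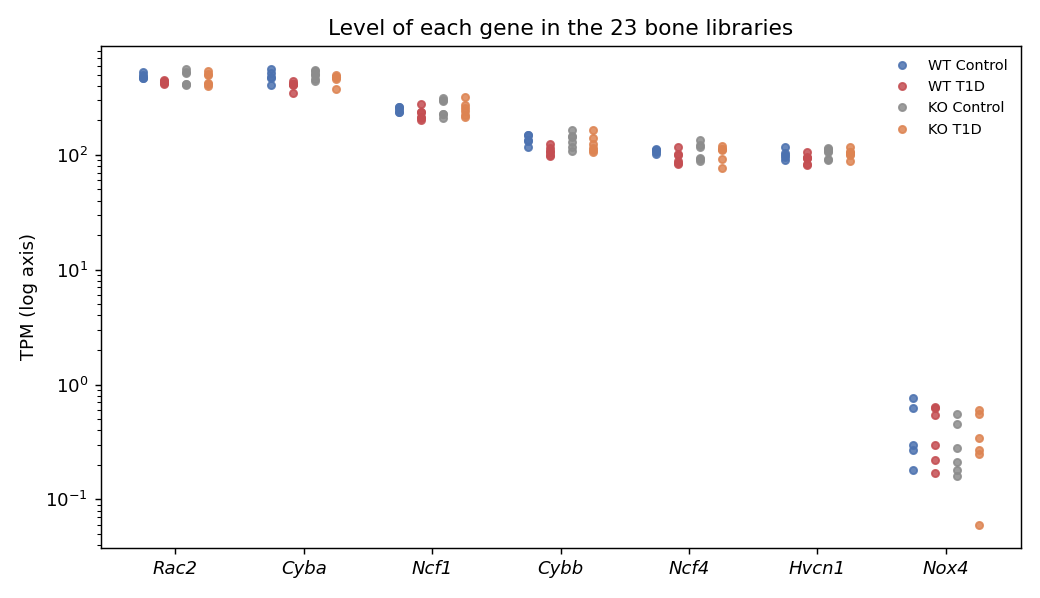
TPM of 7 oxidase genes (log axis) in each of 23 bone libraries, colored by group. The 6 phagocyte-type genes lie between 76.6 and 562 TPM in every mouse, and Nox4 lies between 0.06 and 0.77 TPM.

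None of the 7 genes passed the threshold for a change with T1D in WT mice when counts were tested. edgeR's quasi-likelihood test with Benjamini-Hochberg adjustment over all tested genes called 0 of 7 members at an adjusted p under 0.05, where it called 2.33% of all genes. At an unadjusted p under 0.05 it again counted 0 of 7 members, against 22.2% of all genes, and DESeq2 called 0 of 7, against 6.98% of all genes. The calls over all genes rested on A3905 and A3906: without these 2 mice edgeR called 0 of 7 members and 0% of all genes, and the unadjusted test counted 0 of 7 members against 11% of all genes. Scaled by TMM (a trimmed-mean factor that centers most genes on no change), 6 of 7 members were higher in WT T1D, against 48.1% of all genes, whereas 0 of 7 were higher on the log2(TPM + 1) scale described below. On the TMM scale the median log2 fold change of the members was 0.14 and that of all genes was -0.011. The signs rested in part on A3905 and A3906. Without these 2 mice, counts gave values below 0 for Cybb (-0.11), Cyba (-0.038), Ncf1 (-0.023) and Ncf4 (-0.081). Rac2 (0.0094), Hvcn1 (0.12) and Nox4 (0.17) stayed above 0. For the 6 genes other than Nox4, the 95% intervals of the log2 fold change in the fit to all mice lay within -0.25 to 0.45. These intervals hold gene by gene for this fit and scaling, in which litter and cage could not be modelled. They do not exclude larger changes. Mice A36 to A39 alone gave higher values for Ncf1 and Ncf4, which are given below with the interaction.

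**Figure D2:**
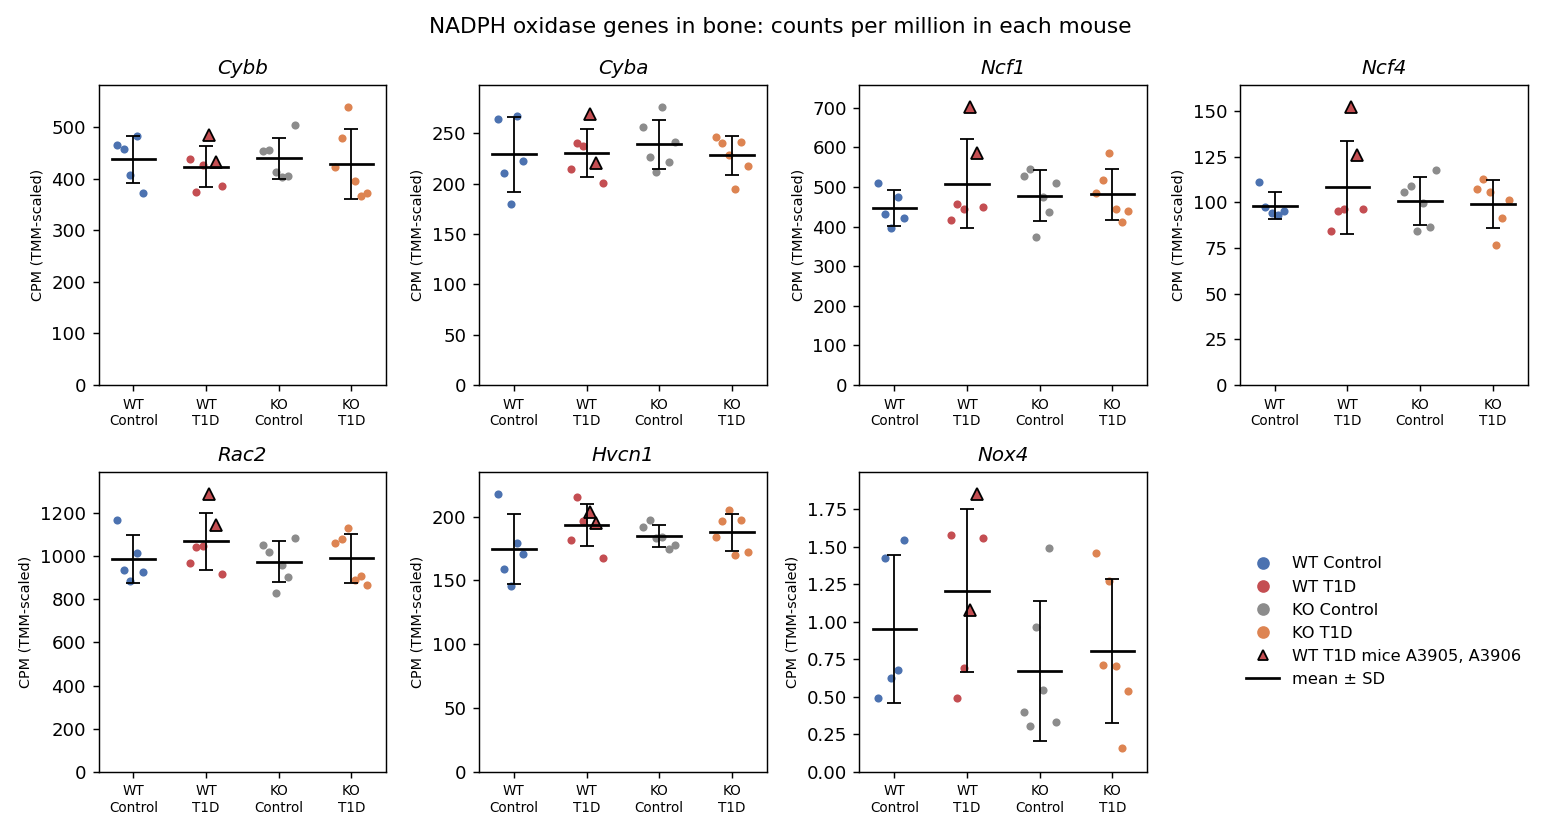
TMM-scaled CPM of each gene by group, 1 point per mouse, with black lines for the mean and bars for the SD. The groups overlap for all 7 genes, and A3905 and A3906 (triangles) are the 2 highest WT T1D mice for Ncf1, Ncf4 and Rac2.

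Among the membrane subunits, Cybb (gene ID 13058; chromosome X, 9435252 to 9487766, GRCm38.p6) had 372, 407, 457, 466 and 483 CPM in the 5 WT Control mice. In WT T1D its lowest, median and highest values were 374, 429 and 485 CPM. The 2 ranges almost coincided, and the log2 fold change was -0.046 (SE 0.10, 95% interval -0.25 to 0.16, adjusted p = 0.831 in edgeR). Cyba (13057; chromosome 8, 122424771 to 122432940) had 180.1, 211, 222, 264 and 267 CPM in WT Control. Its lowest, median and highest values in WT T1D were 201, 229 and 269.6 CPM. Again the WT T1D mice fell within the spread of the controls, apart from 1 mouse just above it, and the log2 fold change was 0.010 (SE 0.10, 95% interval -0.19 to 0.21, adjusted p = 0.965 in edgeR). Cyba turned to -0.038 without A3905 and A3906 and Cybb turned to 0.027 in mice of the A36 to A39 ID series alone, both within their standard errors of 0.

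Among the cytosolic subunits, the organizer Ncf1 (17969; chromosome 5, 134220053 to 134229628) had 398, 422, 432, 475 and 509.5 CPM in WT Control. In WT T1D, 4 mice lay from 416 to 456 CPM, and A3905 and A3906 had 702 and 585 CPM. Only these 2 mice exceeded every control, and the log2 fold change was 0.18 (SE 0.13, 95% interval -0.080 to 0.45, adjusted p = 0.405 in edgeR). It was -0.023 without both mice. Ncf4 (17972; chromosome 15, 78244164 to 78262582), whose product binds phosphoinositides on phagosome membranes, had 93.1, 94.0, 95.1, 97.6 and 111 CPM in WT Control. The same pattern was seen in WT T1D, with 4 mice from 84.3 to 96.3 CPM and with A3905 and A3906 at 152 and 126 CPM. Its log2 fold change was 0.14 (SE 0.13, 95% interval -0.12 to 0.41, adjusted p = 0.543 in edgeR) and turned to -0.081 without both mice.

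Rac2 (19354; chromosome 15, 78559169 to 78572783), the hematopoietic Rac GTPase that switches the enzyme on, lies 296.587 kb from Ncf4. It had 886, 926, 934, 1016 and 1169 CPM in WT Control and a lowest, median and highest value of 919.8, 1046 and 1289 CPM in WT T1D. The groups overlapped, A3905 being the single WT T1D mouse above every control, and the log2 fold change was 0.12 (SE 0.10, 95% interval -0.093 to 0.32, adjusted p = 0.524 in edgeR), or 0.0094 without A3905 and A3906. Hvcn1 (74096; chromosome 5, 122206805 to 122242297) had 145, 159, 171, 179 and 218 CPM in WT Control and a lowest, median and highest value of 168, 196 and 216 CPM in WT T1D. Every WT T1D mouse lay below the highest control, mouse A1757. The log2 fold change of 0.15 (SE 0.085, 95% interval -0.028 to 0.32, adjusted p = 0.312 in edgeR) was the one with the lowest p of the 7, and it was 0.12 without A3905 and A3906.

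Nox4 (50490; chromosome 7, 87244430 to 87398710) was measured with far less precision. WT Control mice had 9 to 28 counts and WT T1D mice 9 to 32, while the ranges were 6 to 27 for KO Control and 3 to 27 for KO T1D. The CPM values were 0.493, 0.622, 0.676, 1.43 and 1.54 in WT Control, with a lowest, median and highest value of 0.490, 1.32 and 1.85 in WT T1D. Mice of both groups fell into the same low and high ranges, and the log2 fold change was 0.34 (SE 0.48, 95% interval -0.66 to 1.34, adjusted p = 0.729 in edgeR). Within groups its counts had an SD of 8.50 to 9.46 at means of 12.3 to 21.3.

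The TPM values gave a different picture for Cybb, Cyba and Rac2, on a scale where most genes had lower values with T1D in WT mice. In limma on log2(TPM + 1), the WT response of the median tested gene was -0.24 (log2 scale), and 35.9% of all genes were called, 35.3% of all genes as lower. On this scale Cybb was called lower (-0.33, adjusted p = 0.0270 in limma), as was Cyba (-0.26, adjusted p = 0.0289 in limma), and the log2 fold changes of the other 5 members were below 0 as well. Neither call held without A3905 and A3906, where Cybb was at -0.29 (adjusted p = 0.151 in limma) and Cyba at -0.21 (adjusted p = 0.171 in limma), with 0 of 7 members and 0.0487% of all genes called. Relative to the median gene, Cybb was at -0.093, Cyba at -0.023 and the other 5 members between 0.064 and 0.23. Rac2 had 464 to 528 TPM in WT Control and 411 to 447 TPM in WT T1D, without overlap, as did 7.15% of all genes, although its log2 fold change on this scale did not pass (-0.18, adjusted p = 0.126 in limma). Cybb fell from 118 to 149 TPM in WT Control to 98.4 to 124 TPM in WT T1D, and Cyba from 409.6 to 562 TPM to 343 to 438 TPM, both with overlap. Hemoglobin genes, which share the fixed TPM total, took 9.73% to 13.9% of counts in WT Control and 12.3% to 21.4% in WT T1D, and their part in the shift was not tested.

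**Figure D3:**
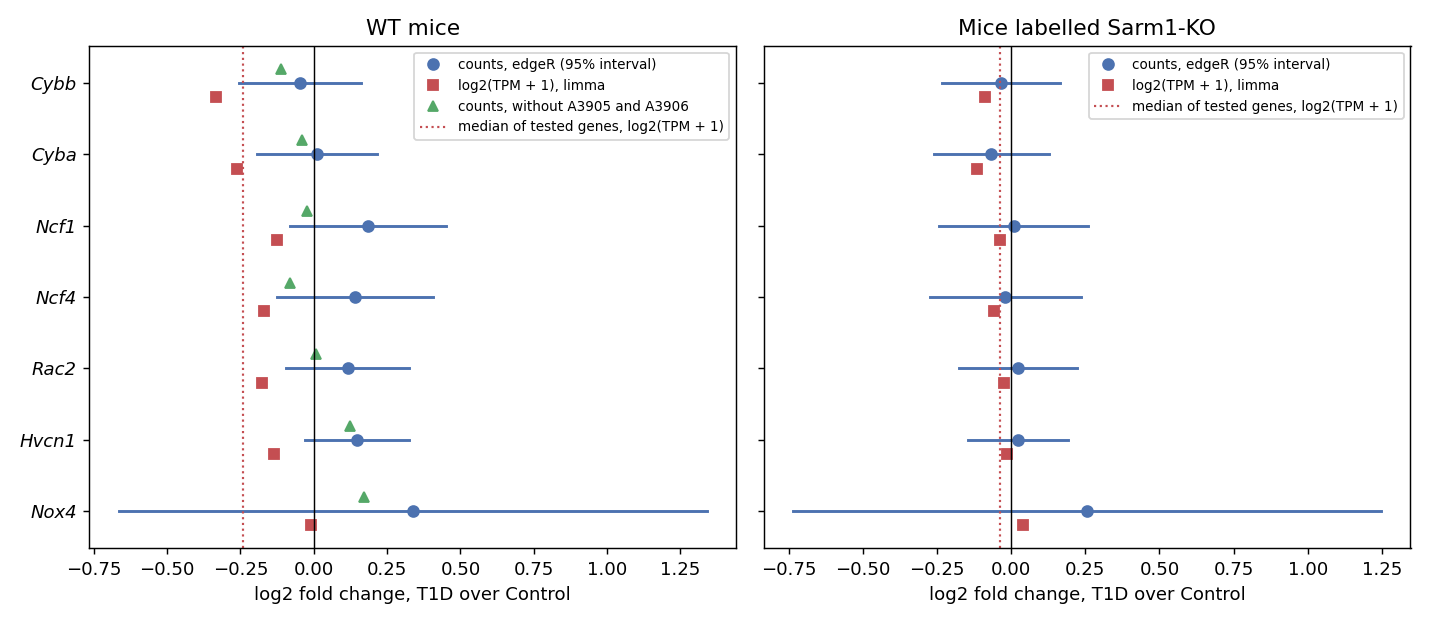
log2 fold change with T1D in WT mice and in mice labelled Sarm1-KO, from counts (circles with 95% intervals), from counts without A3905 and A3906 (triangles, WT) and from log2(TPM + 1) (squares), with the median gene of the TPM scale as a dotted line. All count intervals include 0, and in WT the sign of 6 of 7 genes (all but Cybb) turns between the count and TPM scales.

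In mice labelled Sarm1-KO, the log2 fold changes with T1D ran from -0.066 for Cyba to 0.26 for Nox4, with 4 of 7 above 0, against 49.4% of all genes. edgeR called 0 of 7 members, as it called 0% of all genes, and the unadjusted test also counted 0 of 7, against 3.15% of all genes. Cybb had 402 to 505 CPM in KO Control (median 433) and 366 to 538 CPM in KO T1D (median 409), a log2 fold change of -0.034 (SE 0.096). For Cyba the ranges were 212 to 276 CPM (median 234) and 195 to 246 CPM (median 235), a log2 fold change of -0.066 (SE 0.094). Each KO T1D range overlapped its control range. Ncf1 ran from 375 to 546 CPM (median 493) and from 411 to 587 CPM (median 466), a log2 fold change of 0.0086 (SE 0.12). Ncf4 ran from 84.4 to 118 CPM (median 103) and from 76.5 to 113 CPM (median 104), a log2 fold change of -0.019 (SE 0.12). The medians of Ncf4 differed by less than the spread within either group, as did those of Ncf1. Rac2, from 830.4 to 1085 CPM in KO Control and from 867 to 1132 CPM in KO T1D, and Hvcn1, from 174 to 197 CPM and from 169.9 to 205 CPM, both had a log2 fold change of 0.023. Nox4 again had the widest spread, with 0.308 to 1.49 CPM and 0.158 to 1.46 CPM and a log2 fold change of 0.26 (SE 0.48). The highest bound of the 95% intervals of the 6 genes other than Nox4 was 0.26 and the lowest was -0.27, and on log2(TPM + 1) Ncf1, Rac2 and Hvcn1 took the opposite sign, at -0.038, -0.024 and -0.012.

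No difference between genotypes in the T1D response of these genes passed the threshold. edgeR called 0 of 7 members for the interaction, as it called 0% of all genes, and at an unadjusted p under 0.05 it counted 0 of 7 members, against 10.2% of all genes. The interaction on the log2 scale was lowest for Ncf1 (-0.18, SE 0.18, adjusted p = 0.729 in edgeR) and Ncf4 (-0.16, SE 0.18, adjusted p = 0.758 in edgeR). Both changed sign without A3905 and A3906, to 0.027 and 0.058. Hvcn1 followed at -0.12 (SE 0.12, 95% interval -0.37 to 0.12). On the count scale 1 of 7 interactions (Cybb) lay above 0, against 51% of all genes. Without A3905 and A3906 the interactions of Ncf1, Ncf4, Rac2 and Nox4 lay above 0 as well, so that this count rests in part on those mice. On log2(TPM + 1) all 7 lay above 0, from 0.047 to 0.25, where the median gene was at 0.20. With the A36 to A39 mice alone the interaction was -0.43 for Ncf1 and -0.43 for Ncf4, and the WT response was 0.44 (adjusted p = 0.0524 in edgeR) and 0.41 (adjusted p = 0.0602 in edgeR). That series holds only 3 WT T1D mice, A3905, A3906 and A3909, and the other series, A17, holds 1 WT Control and 3 WT T1D mice and no mice labelled Sarm1-KO, so that it gives no comparison of its own.

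Comparisons of genotype alone gave no call among the members. All mice of the A36 ID series were labelled KO, and all of the A17 and A39 series were WT. Only A3766 (KO Control) and A3767 (WT Control) shared a series. Genotype and ID series can therefore not be told apart here or in the interaction. Between KO Control and WT Control, edgeR called 0 of 7 (0.0278% of all genes), with log2 differences from -0.50 for Nox4 (SE 0.50) to 0.097 for Ncf1 (SE 0.13). Here 5 of 7 members had the higher value in KO Control, against 49.9% of all genes. Between KO T1D and WT T1D it called 0 of 7 (0.0905% of all genes), with differences from -0.58 for Nox4 (SE 0.46) to 0.018 for Cybb (SE 0.096). Here 1 of 7 members had the higher value in KO T1D, against 51.3% of all genes. WT T1D includes A3905 and A3906, and these differences are not given without them. At an unadjusted p under 0.05 the counts were 0 of 7 in both genotype comparisons, against 4.8% and 17.1% of all genes. CPM ranges did not overlap for 0 of 7 members in any of the 4 group comparisons, against 2.19% of all genes for T1D in WT, 0.258% for T1D in mice labelled Sarm1-KO, 0.613% for genotype in Control and 0.863% for genotype in T1D. Poldip2, which codes for a regulator of NOX4, lies 14.48 kb from Sarm1 on chromosome 11. It had 36.3 to 48.7 CPM in WT Control and 43.8 to 51.2 CPM in KO Control, a log2 difference of 0.16 (SE 0.075, adjusted p = 0.999 in edgeR). With T1D its ranges were 39.8 to 49.99 CPM (WT) and 41.8 to 50.9 CPM (KO), a log2 difference of 0.095 (SE 0.071, adjusted p = 0.495 in edgeR).

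RNA levels relative to Cybb were then described as the TPM of each gene divided by that of Cybb in the same library. This measure was chosen after the values above were seen and does not depend on the scaling between libraries. It compares RNA over all cells of the sample, not subunits within the complex. WT Control mice expressed Ncf1 at 1.82 ± 0.15 times Cybb (SD, n = 5), and WT T1D mice at 2.12 ± 0.33 times (n = 6). For KO Control and KO T1D the ratio was 1.94 ± 0.20 and 2.00 ± 0.067 (n = 6 each). With T1D in WT mice all 5 ratios had a higher mean, with log2 differences from 0.072 for Cyba to 0.21 for Ncf1. Without A3905 and A3906, which had the highest ratios of Ncf1 and Ncf4, the differences were 0.089 for Ncf1 (from 0.21), 0.032 for Ncf4 (from 0.17), 0.12 for Rac2, 0.088 for Cyba and 0.24 for Hvcn1. None of the 15 comparisons passed two-sided exact permutation tests after adjustment, the lowest p being 0.082 for Rac2 in WT (adjusted p = 0.574, exact permutation over 462 arrangements, higher than every control in 3 of 6 mice). For Ncf1 in WT the exact permutation p was 0.104 (adjusted p = 0.574), with a ratio above that of every control in 4 of 6 mice. In mice labelled Sarm1-KO the differences ran from -0.028 for Cyba to 0.075 for Hvcn1, and for the interaction from -0.16 for Ncf1 to -0.096 for Rac2.

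**Figure D4:**
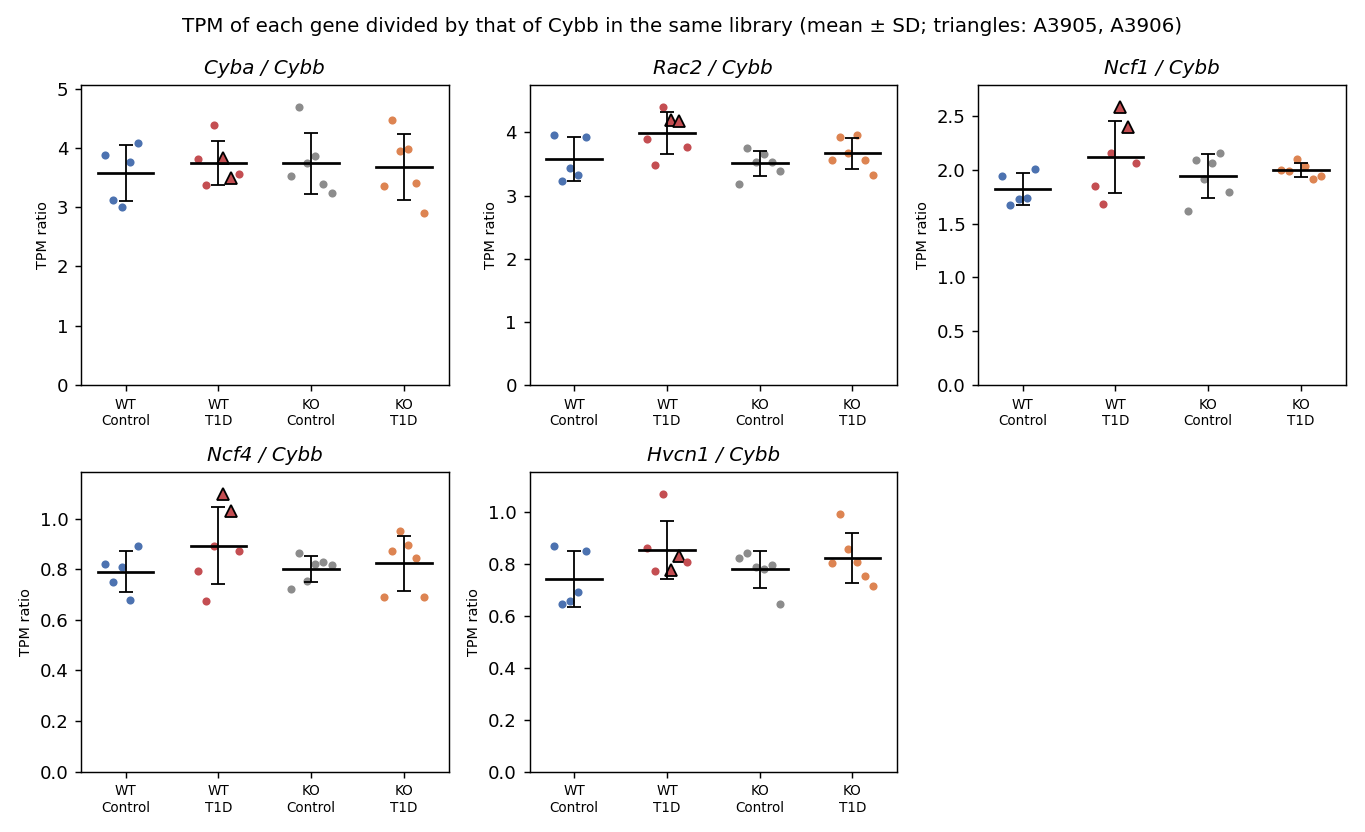
TPM of 5 genes divided by the TPM of Cybb in the same library, by group, with 1 point per mouse, mean and SD. WT T1D has the widest spread for Ncf1, from 1.69 to 2.58, with A3905 and A3906 (triangles) at the top, and the groups overlap for all 5 ratios.

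Several members varied from mouse to mouse together with neutrophil markers, across groups. How many of all tested genes follow these markers as closely was not determined. The neutrophil list (14 genes, led by Ngp, S100a8 and S100a9) was summarized in each mouse as the mean of log2(CPM + 0.5), and the relation was examined after the values of A3905 and A3906 were seen. Over 23 mice, Ncf1 followed this score with r = 0.93 (rho = 0.91), Rac2 with r = 0.90 (rho = 0.92) and Ncf4 with r = 0.88 (rho = 0.84). Each of these 6 coefficients had the smallest p that 100000 permutations can give, 1e-05, or 7e-05 after adjustment over 21 relations. Without A3905 and A3906, the 2 mice farthest from the median score, r was 0.91, 0.90 and 0.75. Cybb had r = 0.63 (permutation p = 0.00084, adjusted p = 0.0035) and rho = 0.75 (permutation p = 6e-05, adjusted p = 0.00031), with r = 0.80 without both mice. Hvcn1 (r = 0.47, permutation p = 0.025, adjusted p = 0.059) and Cyba (r = 0.42, permutation p = 0.047, adjusted p = 0.091) did not pass by r, whereas their rho of 0.55 and 0.50 did (adjusted permutation p = 0.022 and 0.036). Nox4 had r = 0.19 (permutation p = 0.39, adjusted p = 0.44) and rho = 0.012 (permutation p = 0.96, adjusted p = 0.98). After centering each group on its own mean, r was 0.96 for Ncf1, 0.89 for Rac2, 0.88 for Ncf4 and 0.73 for Cybb. With the score as a covariate, the WT response of Ncf1, Ncf4 and Rac2 was -0.018, -0.058 and -0.011.

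**Figure D5:**
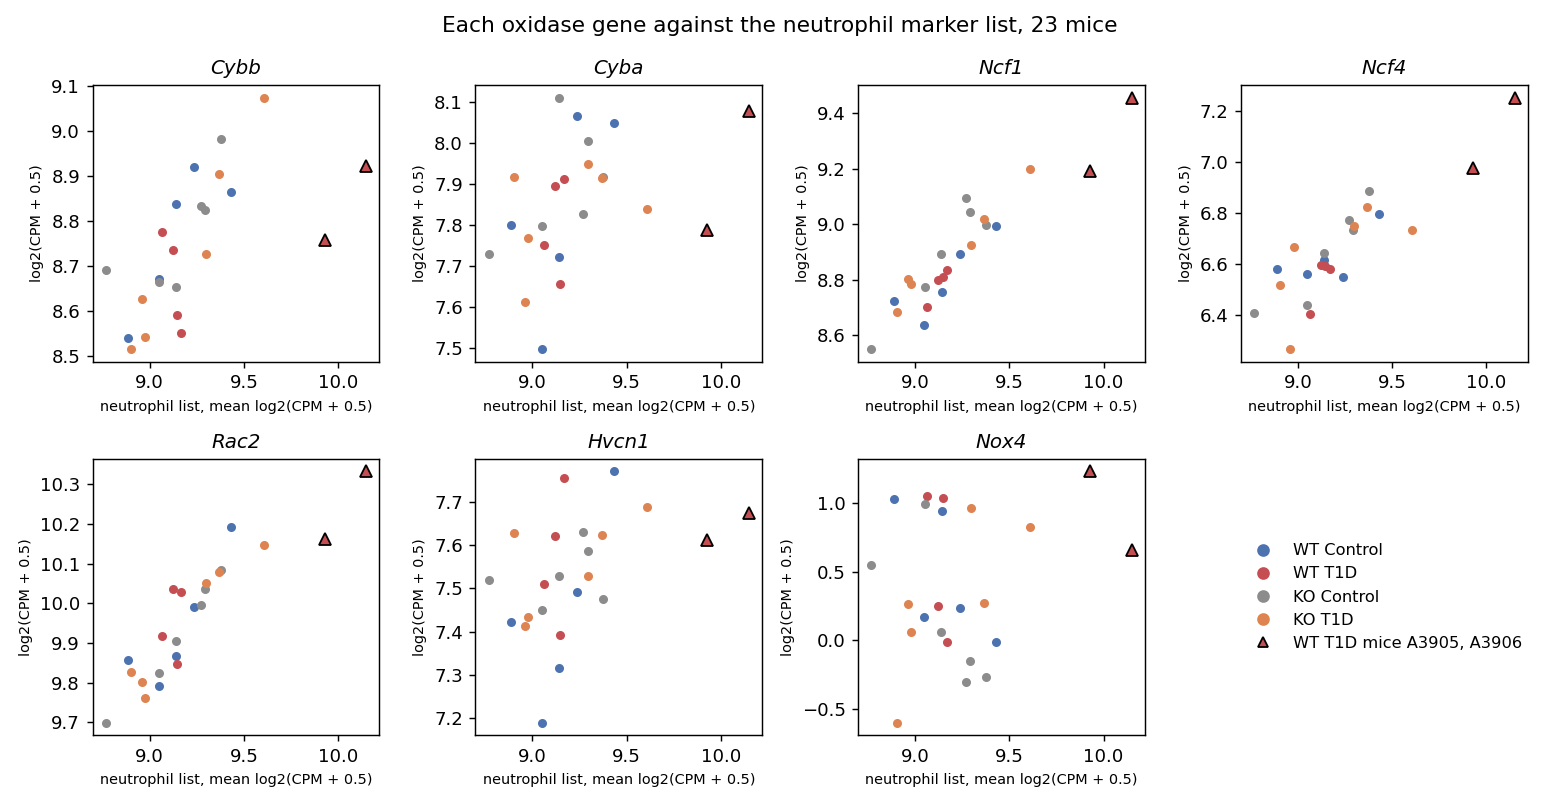
log2(CPM + 0.5) of each gene against the mean log2(CPM + 0.5) of 14 neutrophil markers, 1 point per mouse, colored by group. Ncf1, Rac2 and Ncf4 rise with the score across all groups (r of 0.93, 0.90 and 0.88), and Nox4 has r = 0.19.

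Lists of other cell types, namely monocytes and macrophages and osteoblasts and osteocytes, were examined in the same way. With the monocyte and macrophage list (15 genes, led by Ly6c2, Cd68 and C1qb), Cybb had r = 0.56 (permutation p = 0.0056, adjusted p = 0.015) and rho = 0.47 (permutation p = 0.026, adjusted p = 0.055), and r = 0.37 without mice A3683 and A1787, so that the relation rests in part on those mice. For the other 6 genes r ran from -0.0075 for Nox4 to 0.31 for Ncf1. Centering each group on its own mean gave r = 0.59 for Cybb, 0.51 for Ncf1, 0.45 for Rac2 and 0.43 for Ncf4. The centered r was 0.29 for Cyba, 0.24 for Nox4 and 0.17 for Hvcn1. With the list of osteoblasts and osteocytes (12 genes, led by Bglap, Col1a1 and Bglap2), Ncf1 and Ncf4 both had r = -0.67 (adjusted permutation p = 0.0042), which became -0.27 and -0.15 without A3905 and A3906 and so rests on these mice. Rac2 had r = -0.65 (adjusted permutation p = 0.0024), or -0.46 without them, and rho = -0.59 (adjusted permutation p = 0.012). Hvcn1 had r = -0.46 (adjusted permutation p = 0.059) and rho = -0.71 (adjusted permutation p = 0.0013), with r = -0.66 without them. The library values share one total, so that a rise in one cell type lowers the share of another.

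Among themselves, described over 23 mice with no test, the members formed a tight trio and looser partners. Ncf1 and Rac2 had r = 0.88, Ncf1 and Ncf4 had r = 0.86, and Ncf4 and Rac2 had r = 0.82. With each group centered on its own mean these were 0.90, 0.86 and 0.82. The partners of the membrane complex, Cybb and Cyba, had r = 0.35. Cyba was closest to Hvcn1 (r = 0.67), and Cybb to Rac2 (r = 0.68). Nox4 had r from -0.31 with Cyba to 0.031 with Cybb. The points share library depth and scaling. Neither these values nor the nearest genes below were recomputed without A3905 and A3906, the mice with the highest Ncf4.

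Of 13307 tested genes with a mean of at least 1 CPM, those most like each member over the 23 mice differed by member. Cybb was closest to Lcp1 (r = 0.92), which codes for a leukocyte actin bundler, then to Pak2, Nfam1, Cpne3 and Ceacam1 (r = 0.82 to 0.84). Cyba was closest to Coro1a (r = 0.84), a leukocyte actin regulator, then to Arpc4, Cotl1, Gpsm3 and Slc9a3r1. For Ncf1 the nearest genes were Sema4a (r = 0.94), Vsir, Mcemp1, B430306N03Rik and Chil3. Ncf4 was nearest to Glipr2 (r = 0.93), Mcemp1, Camp, Plbd1 and Pirb, of which Camp, the cathelicidin of neutrophil granules, is also in the neutrophil list. Rac2 was nearest to Pgd (r = 0.92), an enzyme of the pentose phosphate pathway that makes NADPH, and to Alox5ap, Msrb1, Pglyrp1 and Cd177. Hvcn1 was nearest to Tmem40 (r = 0.85), AI467606, Akna, Was and Mknk1. Nox4 was nearest to Itgbl1 (r = 0.77), Col8a2, Errfi1, Ankrd29 and Fmod, the last of which codes for a collagen-binding proteoglycan.

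Other genes of the pathway gave no call in WT T1D either, at the 2.33% of all genes that edgeR called. In the oxidase family list, 0 of 8 tested genes passed in either direction, with a median log2 fold change of -0.34. Among its genes with a mean of at least 1 CPM, the largest differences were those of the podosome scaffolds Sh3pxd2b (-0.86, SE 0.24, adjusted p = 0.0524 in edgeR) and Sh3pxd2a (-0.73, SE 0.29, adjusted p = 0.135 in edgeR), and Rac3 (-0.68, SE 0.31, adjusted p = 0.199 in edgeR), which were -0.51, -0.32 and -0.37 without A3905 and A3906. Duoxa1, a maturation factor of dual oxidases with a mean below 1 CPM, had 1.25 (SE 0.56, adjusted p = 0.191 in edgeR). Among the receptors, kinases, GTPases and other proteins that regulate the phagocyte enzyme, 0 of 26 passed, with a median of 0.0014. The formyl peptide receptors Fpr1 (0.55, SE 0.23, adjusted p = 0.152 in edgeR) and Fpr2 (0.48, SE 0.23, adjusted p = 0.224 in edgeR) and the complement receptor C5ar1 (0.31, SE 0.17, adjusted p = 0.287 in edgeR) had the largest values, which were 0.074, 0.012 and 0.10 without A3905 and A3906. Among transcription factors of myeloid cells, 0 of 10 passed, with a median of 0.070, and the largest values were -0.41 for Klf4 (SE 0.15, adjusted p = 0.104 in edgeR), 0.37 for Cebpb (SE 0.15, adjusted p = 0.137 in edgeR) and 0.27 for Spi1, the gene of PU.1 (SE 0.14, adjusted p = 0.261 in edgeR). Without these 2 mice they were -0.23, 0.31 and 0.060. In the other 4 comparisons these 3 lists also had 0 calls.

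Cell-type markers held calls for T1D in WT mice in some of the 14 lists when all mice were used. edgeR called 6 of 13 tested erythroid genes higher, 2 of 12 osteoblast and osteocyte genes lower (Ibsp and Runx2), 1 of 14 neutrophil genes higher (Stfa2l1, 1.61, SE 0.41, adjusted p = 0.0458 in edgeR), 1 of 9 osteoclast genes higher, 1 of 8 T and NK cell genes lower and 1 of 5 adipocyte genes higher, where it called 2.33% of all genes. None of these calls held without A3905 and A3906, where edgeR called 0% of all genes and 11% had an unadjusted p under 0.05, and Stfa2l1 was at 0.59 (SE 0.24, adjusted p = 0.380 in edgeR). The lists of neutrophil precursors, monocytes and macrophages, eosinophils, B cells, endothelium, cartilage, muscle and megakaryocytes had 0 calls. Summed neutrophil markers ranged from 24789 to 33152 CPM in WT Control and from 26563 to 45590 CPM in WT T1D. Summed monocyte and macrophage markers ranged from 2520 to 3437 CPM in WT Control and from 2673 to 3458 CPM in WT T1D. Besides A3905 and A3906, the highest WT T1D mouse in both sums was A3909, with 28078 and 2976 CPM. Markers were looked for by symbol among the deposited TPM values, where 13 of the 14 erythroid genes were found. None of the markers found was at 0 in every mouse. The part of these cells in the values of the oxidase genes was not tested. The neutrophil covariate given above cannot decide it, since the score was itself highest in A3905 and A3906. Bulk values also cannot tell cell number from RNA per cell.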

How the data were processed

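RNA-Seq values of 23 mice were used. Per the study's methods and the submitters' processing notes, oligo dT libraries were sequenced on the DNBSEQ platform, SOAPnuke filtered the reads, and HISAT and Bowtie2 aligned them (reference GRCm38.p6, mm10). Tool versions were not given in the sources used here. The authors deposited expected counts, estimated per gene with RSEM and rounded to whole numbers, without normalization. They also deposited TPM values, which correct for gene length and sum to a fixed total per library. Every column matched 1 sample, and 0 columns were left unmapped.

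edgeR 4.0.16 (R 4.3.3) gave the main results by its quasi-likelihood test of genotype, T1D and their interaction, with TMM scaling, Benjamini-Hochberg adjustment and a threshold of 0.05. It ran on the 14364 genes that reached 10 counts in 5 or more mice. limma 3.58.1 and DESeq2 1.42.0 served as alternatives. Python 3.11.15 (numpy 2.4.6, pandas 2.3.3, matplotlib 3.10.9, scipy 1.17.1) was used for permutation tests and figures. CPM values are scaled by TMM. Correlations used log2(CPM + 0.5). The procedure was tested on simulated data. Members were matched by symbol and gene ID, and positions and promoters came from RefSeq on GRCm38.p6. Genes named besides the members were Poldip2 and Sarm1, called genes and the 3 largest WT changes (mean of at least 1 CPM) of each pathway list, the 5 genes most correlated with each member, and leading markers. Marker genes with a call were named after their values were seen. 1 gene of the fixed lists is not reported here. The members and lists were chosen with earlier results of these data known. Per the study's methods, mice shared cages and the breeding of heterozygous parents gave WT and knockout animals of the same litters, with some WT mice bought in. Which mice shared a litter, cage or source is not given in the sources used here and could not be modelled, and p-values measure the spread between mice. The 55 pairs of mice within groups had a chi-square per gene of 10.9 to 187, so no library was a repeat of another in its group. Pairs across groups were not compared.

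Alternatives covered DESeq2, limma on log2(TPM + 1) and log2(TPM + 0.1), other size factors, hemoglobin counts removed, no gene filter, only the groups compared, only mice A36 to A39, A3905 and A3906 left out, marker covariates, and each mouse left out in turn. The alternatives for ratios to Cybb (count ratios, the same subsets of mice) and limma on log2(TPM + 1) without A3905 and A3906 were chosen after seeing the data.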

Additional observations from a re-analysis of the deposited data

Results flagged for a closer look

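Outlying mice were sought in each group for the CPM of the 7 genes and for the 5 ratios to Cybb, by comparing the gap between the most extreme mouse and its neighbor with the range of the group. Of 48 groups tested, 3 stood out, and chance alone flags about 1 in 20 groups. Ncf4 in WT Control mouse A1757 was the highest of its group at 111 CPM, where the other 4 mice had 93.1 to 97.6 CPM. The ratio of Hvcn1 to Cybb was highest in WT T1D mouse A1787, at 1.07 against a group median of 0.819. The same ratio was lowest in KO Control mouse A3766, at 0.646 against a group median of 0.793. Mouse A1757 also had the highest Ncf1, Rac2 and Hvcn1 CPM of the WT Control group, and leaving it out gave a log2 fold change with T1D in WT of 0.24 for Hvcn1 and 0.19 for Ncf4, with 0 calls among the 7 genes.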

How the results depend on the processing

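The count of members called was 0 in all 5 comparisons under every alternative run on counts and stayed 0 without any single mouse. It was 2 for T1D in WT (Cybb and Cyba) with limma on log2(TPM + 1) and 2 on log2(TPM + 0.1), but 0 with log2(TPM + 1) once A3905 and A3906 were left out. DESeq2 called 0 members. For T1D in WT, the number of all genes called fell from 334 to 0 without these 2 mice, to 0 with only the WT groups in the fit and to 0 with the erythroid covariate, and it was 1002 with DESeq2 and 2205 in mice A36 to A39. Since no member was called on counts, the changes of sign below concern values that had not passed. For T1D in WT, log2(TPM + 1) gave -0.26 for Cyba, -0.12 for Ncf1, -0.17 for Ncf4, -0.18 for Rac2, -0.0090 for Nox4 and -0.13 for Hvcn1, and log2(TPM + 0.1) gave -0.26, -0.12, -0.17, -0.18, -0.014 and -0.14. Without A3905 and A3906, log2(TPM + 1) gave -0.21 for Cyba, -0.21 for Ncf1, -0.26 for Ncf4, -0.17 for Rac2, -0.016 for Nox4 and -0.056 for Hvcn1. For T1D in mice labelled Sarm1-KO, both gave -0.038 for Ncf1, -0.024 for Rac2 and -0.012 for Hvcn1. The interaction turned to 0.15 for Cyba, 0.086 for Ncf1, 0.11 for Ncf4, 0.15 for Rac2, 0.047 for Nox4 and 0.12 for Hvcn1 with log2(TPM + 1), and to 0.15, 0.086, 0.11, 0.15, 0.087 and 0.12 with log2(TPM + 0.1). Without A3905 and A3906, T1D in WT gave -0.038 for Cyba, -0.023 for Ncf1 and -0.081 for Ncf4, and the interaction 0.027 for Ncf1, 0.058 for Ncf4, 0.0090 for Rac2 and 0.081 for Nox4. The neutrophil covariate gave -0.056, -0.018, -0.058 and -0.011 for Cyba, Ncf1, Ncf4 and Rac2 in WT, -0.015 for Ncf1 in mice labelled Sarm1-KO, and interactions of 0.0032 for Ncf1, 0.020 for Ncf4 and 0.016 for Rac2. The erythroid covariate gave -0.042 for Cyba in WT, -0.0068 for Ncf1 in mice labelled Sarm1-KO, and interactions of -0.026 for Cybb and 0.12 for Nox4. Mice A36 to A39 gave 0.027 for Cybb in WT and an interaction of -0.068. Total counts without a scaling factor gave -0.062 for Cyba in WT and -0.036, -0.021 and -0.020 for Ncf1, Rac2 and Hvcn1 in mice labelled Sarm1-KO. The cause of these changes was not tested.

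Leaving out each mouse in turn gave log2 fold changes in WT from -0.065 to 0.072 for Cyba, which 4 mice (A3767, A3903, A1787 and A3905) turned below 0. It gave -0.095 to -0.0074 for Cybb, 0.082 to 0.24 for Ncf1, 0.030 to 0.20 for Ncf4, 0.065 to 0.18 for Rac2, 0.090 to 0.24 for Hvcn1 and 0.17 to 0.58 for Nox4. The lowest values of Ncf1, Ncf4 and Rac2 came without A3905, and the highest values of Rac2 and Hvcn1 without A1757. In mice labelled Sarm1-KO it gave -0.11 to 0.0098 for Cybb, -0.056 to 0.049 for Ncf1, -0.064 to 0.039 for Ncf4, -0.020 to 0.056 for Rac2 and -0.0044 to 0.045 for Hvcn1. The interaction ran from -0.064 to 0.056 for Cybb and from -0.33 to 0.31 for Nox4. Of the ratios to Cybb, those of Cyba (-0.087 to 0.039), Ncf1 (-0.0019 to 0.081) and Ncf4 (-0.012 to 0.080) changed sign in mice labelled Sarm1-KO. In the count ratios and all other ratio alternatives 0 of 15 comparisons passed. Nox4, with 3 to 32 counts per mouse, had the widest intervals. No paired analysis was possible because no mouse number is shared between groups.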
